A study of Mus musculus with 8 samples.

Results

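Endothelial and macrophage marker genes were followed in 8 RNA libraries of mouse kidney tubuloids to see which non-epithelial lineages left transcripts in each culture. The 10 genes, of 24063 genes in the files, were taken by name: 5 mark endothelium (Pecam1, Cdh5, Kdr, Emcn and Tek) and 5 mark leukocytes and macrophages (Ptprc, Csf1r, Cd68, Lyz2 and Cd74). The rule itself used no measured value, although earlier results of these data were known when the genes were listed.

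Tubuloids are tubule-like and cyst-like structures grown in Matrigel from pieces of mouse kidney tubule. The files hold 4 libraries treated with doxycycline (DOX) and 4 treated with the vehicle dimethyl sulfoxide (DMSO), and the comparison asked what changes soon after loss of Pkd2, the gene for polycystin-2. All 8 came from mice labelled Pkd2fl/fl Pax8rtTA TetOCre mTmG, in which the Pax8 promoter places the doxycycline-dependent activator of Cre in renal epithelium, so the floxed alleles and the red-to-green membrane reporter are carried by the DMSO cultures too. Tissue was labelled postnatal day 7 to 10, while the study's methods name a younger range. Fragments were held back on a strainer that lets single cells through, were frozen and thawed, and were then grown with a pulse of GDNF and with HGF, EGF and FGF. DOX or DMSO was given from day 3 for 3 days, and RNA was extracted on culture day 7. The labels do not say that the cultures came from separate animals, so the p-values below measure the spread between these libraries, part of which may be technical.

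Endothelial cells line vessels, and in the kidney they form glomerular, peritubular and larger vessels that depend on VEGF made by the epithelium and podocytes. Pecam1 and Cdh5 encode adhesion proteins of endothelial junctions, Kdr and Tek encode receptors for VEGF and for the angiopoietins, and Emcn encodes endomucin, a sialomucin of capillary and venous endothelium. Macrophages of the kidney depend on the receptor encoded by Csf1r and its ligands Csf1 and Il34. Ptprc encodes CD45, a phosphatase carried by nucleated blood cells. Cd68, Lyz2 and Cd74 encode a lysosomal glycoprotein, lysozyme and the invariant chain of MHC class II, and each of them can also be made by other cells.

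Factors of the ETS family are active in both endothelium and myeloid cells, and their core site is often written AGGAAG. That motif was searched on both strands in the 250 bases upstream of each transcript start listed in the RefSeq promoter table (GRCm38.p6), which held such windows for 6 of the 10 genes. For Kdr, Ptprc and Tek the listed start lies inside the whole annotated span of the gene, so their windows fall within that span in whole or for the most part. Shown here are the windows of Emcn and Cd68, the genes with the highest mean TPM among the 5 endothelial and among the 5 leukocyte and macrophage genes. Capitals mark the motif or its reverse complement.
Emcn (chr3:137340828-137341077, plus strand): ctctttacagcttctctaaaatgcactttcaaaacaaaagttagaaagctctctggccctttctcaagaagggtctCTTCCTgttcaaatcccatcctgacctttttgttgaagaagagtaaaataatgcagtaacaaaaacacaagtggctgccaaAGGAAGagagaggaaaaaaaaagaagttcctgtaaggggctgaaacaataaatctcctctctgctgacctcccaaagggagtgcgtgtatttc
Cd68 (chr11:69666171-69666420, minus strand): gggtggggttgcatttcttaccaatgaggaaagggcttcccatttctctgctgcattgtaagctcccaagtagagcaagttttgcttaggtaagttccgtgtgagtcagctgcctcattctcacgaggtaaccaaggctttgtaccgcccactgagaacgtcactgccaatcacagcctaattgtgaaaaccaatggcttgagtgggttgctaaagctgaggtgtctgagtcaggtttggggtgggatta

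The Emcn window held 2 matches, the Lyz2 window 2 and the first Ptprc window 3, whereas Kdr, Tek and Cd68 held 0. A second Ptprc window, which overlaps the first, held 1. The motif was in 29.5% of 32851 RefSeq windows of the same length. A match is a description of these letters and no evidence of binding.

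Depth was high, with 63922677 to 102716313 counts per library when transcript counts were summed by gene. Both DMSO 20 and DOX 19 stood apart, with a count for 13243 and 13599 genes against 17054 to 17903 in the other 6 libraries. Pkd2, the targeted gene, was at 25.0, 24.9, 24.4 and 37.0 TPM (transcript abundance corrected for length and scaled to a fixed library total) in DMSO 3, 5, 15 and 20 and at 19.0, 28.2, 26.7 and 21.3 TPM in DOX 9, 12, 19 and 21. The groups overlapped (log2 fold change -0.31 ± 0.21 SE, adjusted p = 0.999 by DESeq2), so Pkd2 RNA did not separate the labels, and gene-level counts do not show the floxed exons on their own.

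Of the 5 endothelial genes, Emcn alone was at 1 TPM or more, in 8 of 8 libraries. In DMSO 3, 5, 15 and 20 it was at 57.7, 63.6, 22.1 and 39.65 TPM, and in DOX 9, 12, 19 and 21 at 28.5, 142, 44.5 and 160.0 TPM. The highest values were in DOX 12 and DOX 21, whereas DOX 9 and DOX 19 lay within the range of the DMSO libraries. Its mean was 45.8 ± 18.8 TPM in DMSO and 93.8 ± 66.9 TPM in DOX (SD, n = 4 each). These are bulk samples, in which fewer cells of a type and less RNA per cell cannot be told apart.

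Pecam1 was far lower, at 0.242, 0.698, 0 and 0 TPM in DMSO 3, 5, 15 and 20 and at 0.223, 0.138, 0 and 0.508 TPM in DOX 9, 12, 19 and 21. The libraries at 0 were in both groups, and they include DMSO 15, which had a full number of detected genes. Cdh5, the defining cadherin of endothelial junctions, was at 0.00993, 0.0546, 0.0212 and 0 TPM in the DMSO libraries in the same order and at 0.0408, 0.170, 0 and 0.0569 TPM in the DOX libraries. Its largest value rested on 33 reads in DOX 12, and no other library had more than 9.

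Kdr, the main VEGF receptor of endothelium, was at 0.360, 0.394, 0.0620 and 0 TPM in DMSO 3, 5, 15 and 20 and at 0.175, 0.140, 0.00967 and 0.254 TPM in DOX 9, 12, 19 and 21. DMSO 3 and DMSO 5 were highest and both libraries with few detected genes were lowest. Tek did not follow the same order, at 0.0255, 0.0176, 0.491 and 0 TPM in the DMSO libraries and 0.0394, 0.518, 0.0170 and 0.211 TPM in the DOX libraries. Its 2 highest libraries were DMSO 15 and DOX 12, 1 from each group.

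At a rule of at least 3 of 5 genes at 1 TPM or more, endothelial genes were present in 0 of 8 libraries, since Emcn alone reached that level. The threshold matters here. At 0.1 TPM the rule was met in 5 libraries and at 10 counts in 6, neither set including DMSO 20 or DOX 19. Where a library had no read of a gene, 3 counts would have given at most 0.0303 TPM for Pecam1, 0.0247 for Cdh5, 0.0216 for Tek and 0.0181 for Kdr, so a level of 1 TPM would have been seen at this depth. Such limits cover counting error only.

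**Figure D1:**
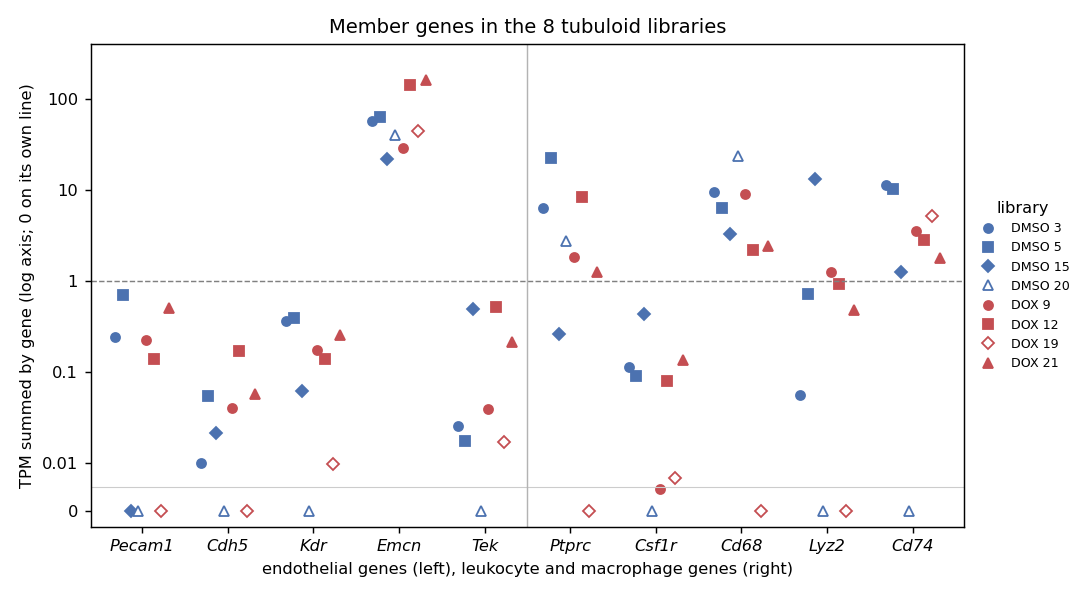
TPM of the 10 genes in each library on a log axis, with values of 0 on a line of their own below it; circles, squares, diamonds and triangles are single libraries, blue is DMSO, red is DOX, and open symbols are the 2 libraries with few detected genes. Emcn lies between 22.1 and 160.0 TPM in all 8 libraries, while Pecam1, Cdh5, Kdr, Tek and Csf1r lie below the dashed line at 1 TPM throughout.

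A wider list of 25 endothelial genes gave a mixed picture, with 14 genes at 1 TPM or more in some library, 6 in every library and 11 in none. The 3 genes with the highest mean were Plvap, a diaphragm protein of fenestrated endothelium, Egfl7, a secreted endothelial protein, and Cd34, a sialomucin of endothelium and progenitor cells. Plvap ranged from 77.5 to 703 TPM (median 249), Egfl7 from 29.6 to 47.2 TPM and Cd34 from 2.15 TPM in DMSO 15 to 117 TPM in DMSO 20 and 102 TPM in DOX 19. The 6 genes at 1 TPM or more in every library were these 3, the VEGF receptor Flt1 (7.46 to 20.8 TPM), the TGF-beta co-receptor Eng (9.70 to 30.5 TPM) and Rasip1 (1.72 to 4.21 TPM). With 1 transcript per gene Egfl7 ranged from 7.02 to 11.2 TPM and Cd34 from 1.04 to 56.9 TPM. Egfl7 then lay below the mean of Flt1 (14.0 TPM), so its rank rests on the summing of transcripts. Among the 11 genes below 1 TPM throughout, Erg, an endothelial ETS factor, reached 0.110 TPM at most, Tie1, a receptor related to Tek, 0.156 TPM, and Vwf, the clotting factor of endothelial granules, 0.0628 TPM. Flt1, Eng, Rasip1, Erg, Tie1 and Vwf were picked from the list after their values were seen. Of the 25 genes, 18 were at 0 in DMSO 20 and 14 in DOX 19, against 0 to 3 in the other 6 libraries.

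Genes of other cell types were measured beside them. All 10 fibroblast and mural genes were at 1 TPM or more in some library and 7 in every library, and their summed level was 399 to 5585 TPM in DMSO and 926 to 1322 TPM in DOX. In DMSO 15 the smooth muscle genes Acta2 and Tagln reached 1212 and 1708 TPM, and Col3a1, a fibrillar collagen, reached 895 TPM. Of 8 podocyte genes, 7 were at 1 TPM or more in some library, with a summed level of 71.6 to 193 TPM in DMSO and 74.1 to 600.3 TPM in DOX. In DOX 21 and DOX 12, the libraries with the most Emcn, Synpo was at 61.3 and 10.6 TPM, its highest and lowest values. Cdkn1c was at 87.9 TPM in DOX 21 and 38.6 TPM in DOX 12, its highest values, and lowest at 2.93 TPM in DMSO 20. Among 8 epithelial genes, 7 were at 1 TPM or more in every library, with sums of 750.0 to 3169 TPM in DMSO and 982 to 2018 TPM in DOX, led by Krt19, Krt18 and Cldn7 (means 421, 372 and 322 TPM). With 1 transcript per gene Cldn7 ranged from 52.1 to 328 TPM and was below Krt8 in every library. The part of these cell types in the level of Emcn or Plvap was not tested.

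**Figure D2:**
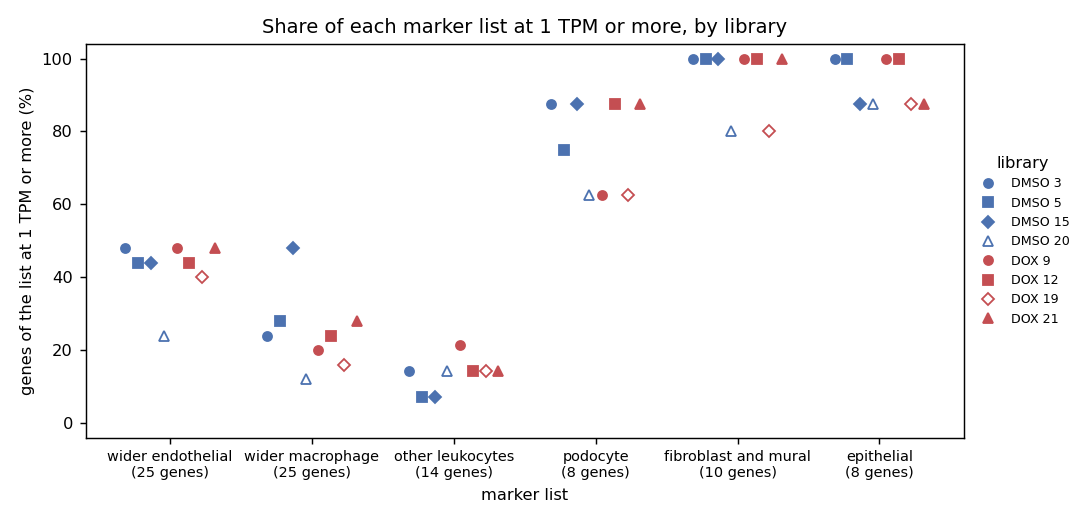
Percentage of each marker list's genes at 1 TPM or more, 1 symbol per library (blue DMSO, red DOX, open symbols the 2 libraries with few detected genes). Epithelial and fibroblast lists lie at 80% or above in every library, whereas the wider macrophage list is at 48% in DMSO 15 and at 12% to 28% in the other 7.

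On the leukocyte side, Ptprc was at 6.39, 22.3, 0.262 and 2.72 TPM in DMSO 3, 5, 15 and 20 and at 1.82, 8.30, 0 and 1.26 TPM in DOX 9, 12, 19 and 21. DMSO 5 was highest and DOX 19 lowest, and the other 3 DOX libraries lay within the DMSO range. Means were 7.91 ± 9.91 TPM in DMSO and 2.85 ± 3.71 TPM in DOX (SD, n = 4 each). Csf1r, the defining receptor of macrophages, was at 0.112, 0.0913, 0.431 and 0 TPM in DMSO 3, 5, 15 and 20 and at 0.00525, 0.0796, 0.00680 and 0.137 TPM in DOX 9, 12, 19 and 21. Thus no library reached 1 TPM of Csf1r, and its highest value was in DMSO 15, where Ptprc was second lowest. The Csf1r level may hold reads of a neighbour, since 13.9% of its 75-base windows also occur in transcripts of Hmgxb3.

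Cd68, found in lysosomes of macrophages and of other cells, was at 9.38, 6.35, 3.27 and 23.3 TPM in the DMSO libraries and at 9.11, 2.20, 0 and 2.43 TPM in the DOX libraries. It was highest in DMSO 20, in which Csf1r, Lyz2 and Cd74 were all at 0. Lyz2 was at 0.0562, 0.721, 13.3 and 0 TPM in DMSO and at 1.25, 0.915, 0 and 0.477 TPM in DOX, so that DMSO 15 held most of it. A small share of the Lyz2 windows, 5.96%, is shared with its paralog Lyz1. Cd74 was at 11.3, 10.1, 1.25 and 0 TPM in DMSO and at 3.502, 2.82, 5.22 and 1.77 TPM in DOX. DMSO 3 and DMSO 5 were high, and DOX 19 was the only library with Cd74 and no Ptprc, Cd68 or Lyz2.

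By the same rule of 3 of 5 genes at 1 TPM, leukocyte and macrophage genes were present in 6 of 8 libraries, 3 in each group. DMSO 20 reached it for Ptprc and Cd68 only and DOX 19 for Cd74 only. The call rested on Cd68 and Cd74 together with Ptprc in DMSO 3, DMSO 5, DOX 12 and DOX 21, with Lyz2 in DMSO 15 and with both in DOX 9, and in no library on Csf1r. It also depends on how the transcripts were added, and with 1 transcript per gene the rule was met in 3 libraries (DMSO 3, DMSO 5 and DOX 9). Cd74 then fell short in DMSO 15 (0.597 TPM), Cd68 in DOX 12 (0.990 TPM), and Ptprc and Cd74 in DOX 21 (0.403 and 0.819 TPM). The deposited files give each of the 3 Ptprc transcripts and each of the 2 Emcn transcripts the same count in a library. With 1 transcript, Ptprc ranged from 0 to 7.10 TPM and Emcn from 10.9 to 78.9 TPM, so the summed levels above are upper values for both.

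The wider macrophage list of 25 genes set DMSO 15 apart. C1qa, C1qb and C1qc, which encode the chains of complement C1q made by tissue macrophages, were at 2.25, 4.81 and 3.37 TPM in DMSO 15 and at 0 in the other 7 libraries. Tyrobp, a myeloid adaptor, was at 3.40 TPM in DMSO 15, at 0.0359 TPM in DOX 9 and at 0 elsewhere. DMSO 15 was the highest library for 15 of the 25 genes, while each other library was highest for 0 to 3. These genes and this count were singled out after their values were seen, and they come from 1 library of the 4 DMSO libraries. Adgre1, which encodes the macrophage antigen F4/80, was at 0.0195 TPM in DMSO 15 and at 0 in all other libraries.

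Cd53 and Cd14, both among the 3 genes with the highest mean in that list, did not share this pattern. Cd53, a leukocyte tetraspanin, was at 0 in DMSO 20 and at 90.0 TPM in DOX 21, a library with 1.26 TPM of Ptprc. Cd14, the co-receptor for lipopolysaccharide, ranged from 8.67 TPM in DOX 19 to 50.7 TPM in DMSO 3. Of the 25 genes, 16 were at 1 TPM or more in some library, 2 in every library and 9 in none, and 21 were at 0 in each of DMSO 20 and DOX 19.

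MHC class II genes, whose products pair with the invariant chain, followed Cd74 only in part. H2-Ab1 was at 47.1 TPM in DMSO 15, where Cd74 was at 1.25 TPM, and at 7.90 TPM or less in the other 7 libraries. H2-Aa was at 0 in 8 of 8 libraries. H2-DMa and H2-DMb1, which encode chains of the peptide-loading protein H2-DM, had their highest values of 9.00 TPM in DOX 19 and 6.78 TPM in DMSO 15. Ciita, the activator of these genes, did not exceed 0.967 TPM.

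**Figure D3:**
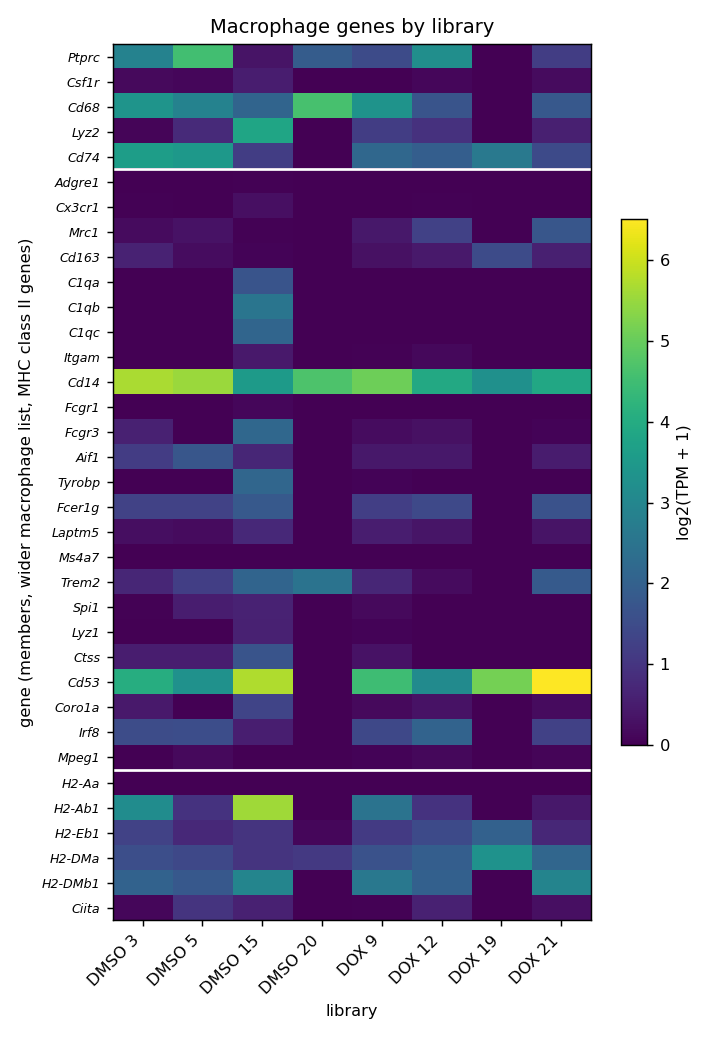
Heat map of log2(TPM + 1) for the 5 leukocyte and macrophage genes (top block), the wider macrophage list (middle, 1 gene not drawn) and MHC class II genes (bottom), 1 column per library. The C1q genes and Tyrobp are lit in DMSO 15, whereas the columns of DMSO 20 and DOX 19 are at 0 for 21 genes of the middle block.

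Genes of other blood cells were measured too. Their summed level was 2.82 to 24.7 TPM in DMSO and 4.45 to 18.1 TPM in DOX for other leukocytes, against 18.5 to 39.6 TPM and 5.23 to 15.7 TPM for the 5 leukocyte and macrophage genes. Of 14 matched genes of other leukocytes, 4 were at 1 TPM or more in some library and none in every library, and the T cell genes Cd3d, Cd3e and Cd8a and the B cell gene Ms4a1 were at 0 in 8 of 8. The 3 highest by mean were Kit (0 to 10.4 TPM), S100a8 (0 to 14.2 TPM) and Klrb1c (0.0250 to 5.88 TPM), with S100a8 highest in DMSO 20 and DOX 19. Red blood cell genes reached 1 TPM in DOX 19 only, for 5 of 8 genes, led by Hbb-b1 at 8.11 TPM and Hbb-bs at 8.003 TPM, with Alas2 at 1.29 TPM. Hbb-b1 and Hbb-bs had the same count in each of the 8 libraries, so both values repeat the same reads. Hba-a1 and Hba-a2, also among the 5, had the same count of 131 in DOX 19, so the 5 genes are not separate signals.

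Most ligands for the receptors of both lineages had RNA in each culture. Of 10 growth factor genes, 8 were at 1 TPM or more in every library. Vegfa, the ligand of Kdr, ranged from 349 to 1121 TPM, Vegfb from 22.7 to 51.8 TPM and Csf1, the ligand of the Csf1r receptor, from 24.7 to 79.4 TPM. These summed levels are upper values. With 1 transcript per gene Vegfa ranged from 38.0 to 128 TPM, Vegfb from 10.9 to 25.1 TPM and Csf1 from 8.25 to 26.7 TPM. None of these 10 genes was called between DOX and DMSO.

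Across genes, and on the scale of TPM, the order of the means over 8 libraries was Emcn (69.8 ± 52.2 SD), Cd68 (7.01 ± 7.40), Ptprc (5.38 ± 7.44), Cd74 (4.49 ± 4.14), Lyz2 (2.09 ± 4.55), Pecam1 (0.226 ± 0.257), Kdr (0.174 ± 0.151), Tek (0.165 ± 0.220), Csf1r (0.108 ± 0.141) and Cdh5 (0.0442 ± 0.0558). Emcn was above Cd68 in 8 of 8 libraries. Every other pair of neighbours in the order changed places in some library, with the first of the pair higher in 3 to 6 of 8, so these neighbours did not differ beyond their spread. With 1 transcript per gene Emcn (34.4 TPM) and Cd68 (3.08 TPM) stayed first and second, and Ptprc (1.72 TPM) moved below Cd74 and Lyz2 (2.09 TPM each). Lower in the order, Kdr (0.174 TPM) moved above Pecam1 (0.114 TPM) and Csf1r (0.108 TPM) above Tek (0.0544 TPM).

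DOX and DMSO were compared by the DESeq2 Wald test over all genes, with a gene called if its adjusted p was 0.05 or less and its change 1.5-fold or more. None of the 10 genes was called, and the background was 0.147% of 17011 genes tested (14 higher and 11 lower in DOX). The quasi-likelihood test of edgeR called 0 of 15562 genes, a background of 0%, and none of the 10 was among them. Unadjusted, 476 genes had a p under 0.05 in edgeR. In normalised counts, the deposited counts divided by DESeq2 size factors, the DOX and DMSO libraries overlapped for 10 of 10 genes, where 2.71% of 17633 genes showed no overlap. The lowest unadjusted p among the 10 was 0.112, for Emcn.

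Emcn had normalised counts of 3910, 3394, 1511 and 2231 in DMSO 3, 5, 15 and 20 and of 1715, 7079, 2744 and 9607 in DOX 9, 12, 19 and 21. DOX was higher on average but reached both above and into the DMSO range. The log2 fold change was 0.94 ± 0.59 (SE; 95% interval -0.22 to 2.09; adjusted p = 0.999 by DESeq2), and it was 0.48 without DOX 21 and 1.23 without DOX 9. The other endothelial genes had wider intervals: Cdh5 differed by 1.51 (-1.88 to 4.90), Tek by 0.21 (-3.11 to 3.53), Pecam1 by -0.08 (-4.39 to 4.23) and Kdr by -0.57 (-3.38 to 2.23). Leaving out 1 library moved each of them: Tek was 3.54 without DMSO 15 and -0.75 without DOX 12, and Pecam1 was 1.22 without DMSO 5 and -0.98 without DOX 21. Cdh5 was 2.33 without DMSO 5 and 0.63 without DOX 12, and Kdr was -0.01 without DMSO 3 and -1.04 without DOX 21.

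Ptprc had normalised counts of 1600, 4396, 66.2 and 565 in DMSO 3, 5, 15 and 20 and of 405, 1527, 0 and 280.3 in DOX 9, 12, 19 and 21. The DMSO libraries held both the highest value and one lower than 3 of the DOX libraries. The log2 fold change was -1.58 ± 1.49 (SE; 95% interval -4.50 to 1.34; adjusted p = 0.999 by DESeq2). Csf1r differed by -1.70 (-4.90 to 1.49), Cd68 by -1.65 (-4.12 to 0.83) and Cd74 by -0.83 (-3.40 to 1.73). Lyz2 differed by -2.67 (-6.54 to 1.20) with no p from DESeq2, since it was removed by the Cook's distance filter, and without DMSO 15 the value was 1.41. Single libraries moved the others as well, Ptprc to -0.43 without DMSO 5 and -2.86 without DOX 12, Csf1r to -0.37 without DMSO 15 and -2.72 without DOX 21, Cd74 to -0.10 without DMSO 3 and -1.25 without DMSO 20, and Cd68 to -1.0 without DMSO 20 and -2.88 without DOX 9. Leaving out DMSO 20 and DOX 19 together gave -0.55 for Cd68, -1.43 for Ptprc and -1.57 for Cd74. The intervals take in both no change and changes of several fold, so the misses do not show that the groups were alike.

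**Figure D4:**
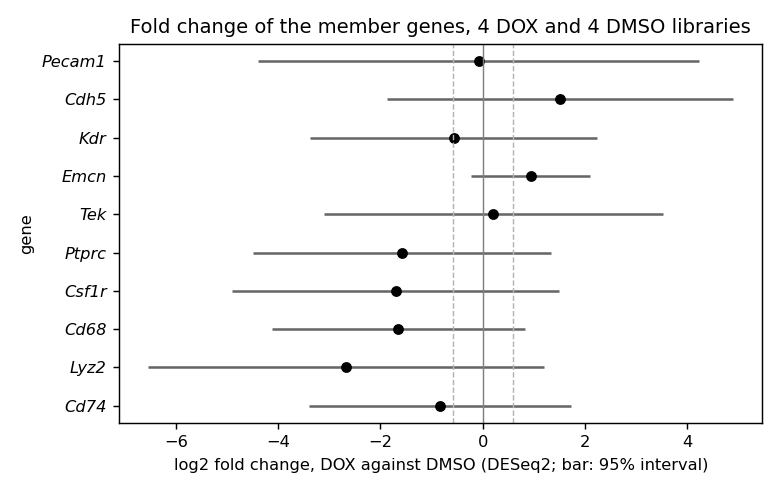
Log2 fold change of each gene, DOX against DMSO, from DESeq2 (points) with 95% intervals (bars); the solid line marks no change and the dashed lines the 1.5-fold call limit. Every interval crosses 0, and the narrowest is that of Emcn (-0.22 to 2.09).

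Summed over the 5 endothelial genes, log2(normalised count + 1) was 11.40 ± 0.60 in DMSO and 12.08 ± 1.15 in DOX, a difference of 0.68 (SD, n = 4 each; no test) that was 0.29 without DOX 21 and 1.10 without DOX 9. Emcn makes up nearly all of that sum, and without it the levels were 5.40 ± 3.60 and 5.96 ± 2.20. Over the 5 leukocyte and macrophage genes the levels were 11.08 ± 1.01 and 9.51 ± 1.13, a difference of -1.57. Among the 9 genes with an adjusted p, the fold change of 3 of 5 endothelial genes (median 0.21) and of 0 of 4 leukocyte and macrophage genes (median -1.62) was above 0, beside a median of -0.07 over all genes tested. In the wider lists, the medians over genes with an adjusted p were 0.16 (24 endothelial genes) and -0.61 (16 macrophage genes), with 0 called in either. The latter leaves out Ms4a7, which was at 0 in all libraries and had no fold change. It also leaves out 8 macrophage genes with a fold change but no adjusted p (Adgre1, C1qa, C1qb, C1qc, Itgam, Fcgr1, Tyrobp and Lyz1). These 8 were all fitted lower in DOX and had their highest TPM in DMSO 15. The medians were 0.08 over 5 MHC class II genes, -1.13 over 3 other leukocyte genes, -1.07 over 10 fibroblast and mural genes, 0.75 over 5 podocyte genes, -0.59 over 8 epithelial genes, 1.76 over 2 red blood cell genes and -0.12 over 10 growth factor genes, and 0 genes of these lists were called.

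Profiles were also compared over the 8 libraries, as the mean absolute difference between log2(normalised count + 1) values centred on each gene's mean, among 15919 genes. These had a mean normalised count of at least 10, and the 10 marker genes themselves were left out. Closest to Cdh5 were Mir6990 (0.51), Syn2 (0.52), Cntnap1 (0.52), Wdr86 (0.57) and Gm7008 (0.59), and closest to Csf1r were Vwc2 (0.41), 3632454L22Rik (0.62), Iglon5 (0.62), 4930426L09Rik (0.63) and Il1f10 (0.65). No gene of the wider lineage lists was among them, but listed genes under that count limit could not have appeared. Emcn and Ptprc were added as anchors after their values were seen. Closest to Emcn were Lpl (0.33), Dclk2 (0.33), Pamr1 (0.34), Slc26a7 (0.34) and Tcf21 (0.38). Closest to Ptprc were Aldh1a1 (0.23), Kif12 (0.28), Ltk (0.51), Veph1 (0.51) and Mpped2 (0.56), each of which, like Ptprc, was highest in DMSO 5. Of these, Aldh1a1 ranged from 0 to 52.2 TPM and Kif12 from 0 to 80.3 TPM.

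In RefSeq (GRCm38.p6) the genes were placed as follows: Pecam1 at chr11:106654213-106715281, Cdh5 at chr8:104101613-104144504, Kdr at chr5:75932827-75979072, Emcn at chr3:137341062-137431069, Tek at chr4:94739086-94874976, Ptprc at chr1:138062859-138175756, Csf1r at chr18:61105572-61131139, Cd68 at chr11:69664213-69666170, Lyz2 at chr10:117277541-117282272 and Cd74 at chr18:60803849-60812652. Counts cover whole transcripts, exons and UTRs together. Cdh5, Kdr and Emcn each overlap 1 other annotated gene (Gm29682, Gm32727 and Gm38650), Cd74 overlaps Mir5107 and Csf1r overlaps Mir6983 and Gm52352, and how the counting assigned reads in such overlaps is not given in the sources used here.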

How the data were processed

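RNA from 8 tubuloid cultures, 4 DOX and 4 DMSO by title, was sequenced as 75-base read pairs from poly-A selected SMART-Seq v4 libraries. Per the submitters' processing notes, STAR, featureCounts and DESeq2 were used with mm10, and versions and the settings of STAR and featureCounts are not given in the sources used here. For differential expression the study's methods name Benjamini-Hochberg adjustment at an alpha of 0.1, with limits of 0.05 for adjusted p and 1.5 for fold change. Deposited counts are unnormalized whole numbers, given for each RefSeq transcript. The deposited FPKM (not used here) and the deposited TPM were scaled by the authors for length and library total.

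Counts and TPM were summed by symbol, which gave 24063 genes from 33068 transcripts. Transcripts of 1 gene often carry the same reads, so sums exceed reads. Library pairs within a group differed by more than sampling noise. DESeq2 1.42.0 in R 4.3.3 compared the groups without covariates (Cook's filter, independent filtering at alpha 0.1, Benjamini-Hochberg over all genes). The quasi-likelihood test of edgeR 4.0.16, TMM size factors, 2 filters on low counts, 1 transcript per gene and leaving out libraries were alternatives. Fits were tested on simulated data. Values were tabulated in Python 3.11.15.

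The 10 genes and the marker lists were chosen with earlier results of these data known. All 10 are named, with the 3 highest mean TPM and any called gene of each other list, and the 5 genes nearest Cdh5 and Csf1r in profile. Of 124 listed genes 123 were matched, 2 by older symbols. Flow cell lanes of single libraries are not given in the sources used here. The TPM floor takes 3 counts in a library at 0. One listed gene that this rule would name is not reported here.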

Additional observations from a re-analysis of the deposited data

How the results depend on the processing

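None of the 10 genes was called under any of the 15 alternatives, with adjusted p from 0.631 to 1 where one was given. Of the 139 fits of single genes, 30 gave no adjusted p and so could not be called, most often for Lyz2 and Cdh5. Of 139 fold changes under alternatives, 130 kept their direction. The 9 that reversed all left out 1 library: Lyz2 ranged from -3.26 to 1.41 and was reversed without DMSO 15 (1.41), Pecam1 from -0.98 to 1.22 (reversed without DMSO 3, 0.04, DMSO 5, 1.22, DOX 12, 0.12, and DOX 19, 0.35) and Tek from -0.75 to 3.54 (reversed without DMSO 3, -0.13, DMSO 5, -0.16, DMSO 20, -0.22, and DOX 12, -0.75). Cdh5 and Tek did not pass the edgeR filter, and Emcn alone of the 10 had 10 counts in every library. The difference in the summed endothelial level was 0.29 (without DOX 21) to 1.10 (without DOX 9) with 1 library left out, and that in the leukocyte and macrophage level -2.0 (without DOX 12) to -1.13 (without DOX 19).

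The number of all genes called was 25, against 0 by edgeR, 16 with at least 10 counts in every library, 48 without the Cook's filter, 51 without DMSO 20 and DOX 19, and 14 (without DMSO 3) to 75 (without DMSO 15) with 1 library left out. The cause was not tested. Endothelial genes were present in 0 libraries, but in 5 at 0.1 TPM and 6 at 10 counts. Leukocyte and macrophage genes were present in 6, but in 3 with 1 transcript per gene, 2 at 5 TPM and 0 when all 5 genes were required. Leaving out DMSO 20 and DOX 19, added after seeing the data, gave 0 and 6 of 6. No paired analysis was possible because the groups share no library numbers. With 1 transcript per gene, the highest count in a library was 33 for Cdh5, 39 for Tek, 42 for Pecam1, 79 for Csf1r and 99 for Kdr, so fold changes of these genes rest on few reads.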

Other observations

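H2-DMa, a chain of the MHC class II peptide-loading protein, was at 1.95, 1.66, 0.956 and 1.13 TPM in DMSO 3, 5, 15 and 20 and at 2.10, 2.82, 9.00 and 3.40 TPM in DOX 9, 12, 19 and 21. The groups did not overlap in TPM, but they overlapped in normalised counts, with 152 in DMSO 3 and 145 in DOX 9. The log2 fold change was 1.55 ± 0.61 (SE), which was not called (adjusted p = 0.653 by DESeq2). Cd74, whose product acts in the same pathway, was higher in DMSO on average, with overlapping groups and no call.

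Klrb1c, a receptor gene of natural killer cells, was at 1.33, 0.601, 0.450 and 0.0250 TPM in the DMSO libraries and at 1.22, 3.83, 5.88 and 3.63 TPM in the DOX libraries in the same order. DOX 9 lay within the DMSO range. The change of 2.45 ± 0.95 on the log2 scale was not called (adjusted p = 0.643 by DESeq2), and Nkg7, another gene of those cells, was at 0 in 8 of 8 libraries. Both genes were picked after their values were seen.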
